A study of Drosophila melanogaster with 8 samples.

Results

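The 46 genes named snoRNA:Psi18S- in the deposited counts encode box H/ACA small nucleolar RNAs (snoRNAs) that guide pseudouridylation of 18S ribosomal RNA in Drosophila melanogaster. They were taken by the start of their symbols, out of 15141 genes listed. The number after the hyphen gives the 18S position that a snoRNA guides, and a letter marks copies with the same target. By that number the 46 genes covered 18 positions, of which 7 had several copies (35 genes) and 11 had 1 copy each.

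Each box H/ACA snoRNA folds into a pair of hairpins whose internal loops base-pair with the target RNA and present a uridine to a pseudouridine synthase. That enzyme is dyskerin, called Nop60B in the fly, and it works in a particle with the proteins NHP2, NOP10 and GAR1. In flies most of these snoRNAs have no promoter of their own: they are cut out of introns of host genes after splicing, so a snoRNA and its host messenger RNA (mRNA) start as 1 transcript and are then degraded or kept separately. Pseudouridines in 18S rRNA lie in the small ribosomal subunit, where they affect the folding of the RNA.

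Each library pooled 150 heads of late pupae aged 73 to 90 h after puparium formation, and there were 2 libraries per group. The study concerns the fly counterpart of TDP-43, an RNA-binding protein of human motor neuron disease, which is encoded by TBPH. The first loss-of-function (LOF) group, delta142/Df, had the genotype dTDP-43-delta142/Df(2R)106, a deletion allele over a chromosomal deficiency. The other LOF group, delta23/delta142, carried 1 copy of each of 2 deletion alleles, dTDP-43-delta23 and dTDP-43-delta142. The group labelled gain of function (GOF) was act5c>dTDP-43, in which the actin 5C driver, active in most tissues, expresses the fly protein. The wild-type (WT) libraries are titled Canton S, w1118 and carry the genotype w1118, so which of these stocks was used is not settled. No label states that the libraries of a genotype are separate crosses, and every p-value therefore reflects only the variation among these libraries, possibly technical. In pooled heads, fewer cells of a type and less RNA per cell cannot be told apart.

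The libraries held 716027 to 1302855 counts, and replicates of every group differed by more than sampling noise, with a chi-square per degree of freedom of 3.09 to 9.52. TBPH, the targeted gene, had 41 and 28 counts in delta142/Df, 47 and 57 in delta23/delta142, 68 and 42 in the libraries labelled GOF and 43 and 40 in WT. It was not called in any comparison, with log2 folds against WT of -0.42, -0.34 and -0.18 in delta142/Df, delta23/delta142 and GOF, so the TBPH counts do not check the labels, and the groups are named here by label. Markers of neurons, photoreceptors and glia were present in every library. The sum of 4 photoreceptor markers was 235 to 842 CPM in the mutants against 845 and 644 CPM in WT. By this sum, 5 of the 6 mutant libraries stood below both WT libraries. The 4 markers did not all go 1 way, here in counts before scaling for library size. The marker trp had 117 and 244 in delta142/Df, 88 and 133 in delta23/delta142, 54 and 106 in GOF and 222 and 170 in WT. In the same order norpA had 68 and 123, 152 and 143, 111 and 107, and 83 and 68. The summed level of 3 flight muscle markers, Act88F, TpnC4 and fln, was 164 to 927 CPM (counts after scaling for library size) in the 6 mutant libraries against 1150 and 1590 CPM in WT, without overlap. Of all genes tested, 12.5% had all 6 mutant libraries below both WT libraries. The part of photoreceptors or flight muscle in the results below was not tested. Germ line markers (vas, bam and nos) summed to 6.6 to 14.6 CPM in the mutants against 8.1 and 12.9 CPM in WT.

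Of the 46 snoRNA genes, 43 passed the filter on low counts and were tested. Psi18S-1275, in an intron of RpS29, and Psi18S-531, in an intron of RpL22, had 0 counts in all 8 libraries. A count of 0 allows up to 3 counts, which is 2.30 to 4.19 CPM in single libraries. Their host mRNAs were not low: RpS29, a protein of the small ribosomal subunit, had 758 to 1917 counts and RpL22, of the large subunit, had 210 to 400 counts. Psi18S-640e had 4 counts in delta23/delta142 replicate 1, 4 counts in the GOF replicate 1 library and 0 in the other 6, and was too low to test.

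All 46 symbols were found in the BDGP6 annotation, a later assembly than the dm3 build of the files, and the genes were 124 to 159 bases long. In it, 44 lay in introns of 14 protein-coding genes on the same strand, and 2, Psi18S-176 and Psi18S-301, had no host. None overlapped an annotated gene on the opposite strand. By chromosome arm, 18 lay on 2L, 11 on 2R, 5 on 3L, 8 on 3R and 4 on X. The largest cluster was in Arpc2 on 2L, which encodes a subunit of the Arp2/3 complex that nucleates actin filaments. It held 17 copies, 10 for position 525 and 7 for position 640, interleaved along 2 introns and separated by 11 to 41 bases within each. The other clusters were 5 copies for 1377 in RpS7, 3 for 1854 in RpS5a, 3 for 1347 in pAbp (the poly(A)-binding protein), and 4 for 841 and 2 for 1389 in dom, a chromatin remodelling ATPase. Sf3b3, a subunit of the spliceosomal SF3b complex, held 2 single copies, for 110 and 1086, and 8 hosts held 1 copy each. One of those 8 was Nop60B, the pseudouridine synthase itself, whose intron holds Psi18S-1820.

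The level of the guides, summed per target position and divided by the length of each copy, differed widely between positions. Psi18S-176 had the highest level, a mean over the 8 libraries of 70176 CPM per kb with a range of 47210 to 89740 CPM per kb. Next came position 1377, with 25238 CPM per kb (range 17923 to 33995 CPM per kb), whose range did not overlap that of 176. Positions 920 (15185 CPM per kb), 301 (12607), 1347 (11324), 1295 (10917), 525 (10798), 110 (9795), 996 (8654) and 1086 (8490) followed, and each of these overlapped its neighbours in range. The lowest were 841 (5881 CPM per kb), 1389 (3855), 1820 (3239), 640 (2349), 1397 (1450) and 1854 (1400). The order did not follow the number of copies: 525 summed 11 copies and 640 summed 7, while the single copies of 176, 920 and 301 stood above both. Psi18S-176 alone gave 28.7% to 45.6% of all Psi18S counts in a library. It lies on 2R, as TBPH does, with 9 protein-coding gene starts between them in BDGP6, and the reach of the deficiency was not given in the sources used here.

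The class as a whole showed no difference that passed the test. All 46 genes together were at 36041 and 25392 CPM in delta142/Df, 26727 and 33470 CPM in delta23/delta142, 28995 and 30608 CPM in the GOF libraries, and 22880 and 30000 CPM in WT. The groups overlapped, since WT replicate 2 stood above 3 of the 6 mutant libraries. The log2 fold against WT was 0.22 in delta142/Df (95% interval -0.36 to 0.79, adjusted p = 0.74 in edgeR's quasi-likelihood test), 0.19 in delta23/delta142 (-0.39 to 0.76, adjusted p = 0.78) and 0.17 in GOF (-0.40 to 0.75, adjusted p = 0.77). Without Psi18S-176, a sum added after its share was seen, the log2 folds were 0.32, 0.23 and 0.20, and none was called.

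**Figure D1:**
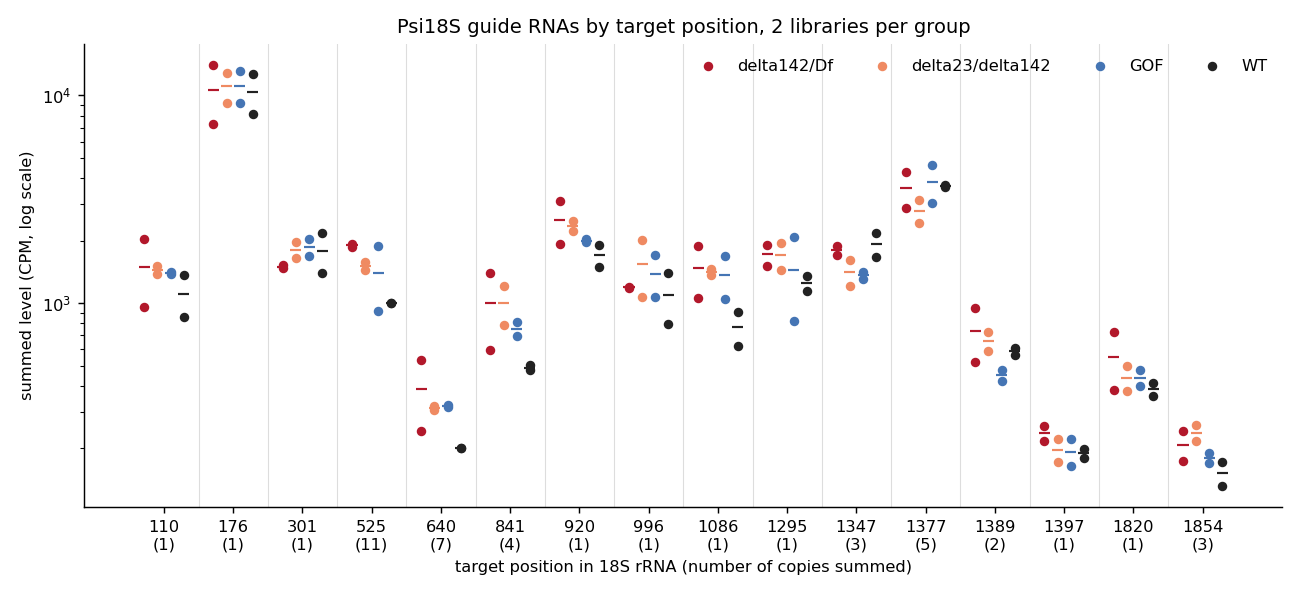
Level of the guides for each 18S position, summed over its copies, in CPM on a log scale. Each point is a library, short lines are group means of 2 libraries, and the number of copies stands in parentheses. At positions 640, 841, 920 and 1086, 4 of the 16 tested, all 6 mutant libraries stand above both WT libraries, as in 11.7% of all genes tested. Position 176 is the highest and its groups overlap.

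Summed by target position, none of the 16 tested positions was called in any comparison, against 1.88% of all genes tested in delta142/Df, 1.01% in delta23/delta142, 3.56% in GOF and 2.68% in the average of the LOF groups, each against WT. At an unadjusted p below 0.05 there were 5 positions in delta142/Df, 3 in delta23/delta142, 3 in GOF and 6 in the LOF average. Of all genes, 17.5%, 15.8%, 19.3% and 20% passed that unadjusted threshold in these comparisons. With both directions counted, the 3 of 16 in delta23/delta142 and in GOF were near the background. By direction, 5, 3, 2 and 6 positions were higher than in WT, and 1 position in GOF, 1347, was lower. Of the 9225 genes tested, 672, 587, 740 and 705 were higher at that threshold, and 939, 871, 1041 and 1138 were lower. The difference from these numbers by direction was not tested. The median log2 fold of the 16 positions was 0.44 in delta142/Df, 0.41 in delta23/delta142 and 0.22 in GOF, against medians over all genes of 0.0072, -0.024 and -0.0055. These comparisons share their WT libraries.

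The guides for 841, 1086, 640 and 525 had the largest log2 folds in size when averaged over the 3 genotypes, though 1854 exceeded 640 and 525 in delta23/delta142 and 1347 exceeded 525 in GOF. Position 640 was at 535 and 242 CPM in delta142/Df, 307 and 320 CPM in delta23/delta142, 316 and 325 CPM in GOF and 202 and 201 CPM in WT. Position 841 was at 1402 and 599 CPM in delta142/Df, 1215 and 789 CPM in delta23/delta142, 699 and 809 CPM in GOF and 476 and 502 CPM in WT. At both positions every mutant library stood above both WT libraries. That held for 4 of the 16 tested positions, against 11.7% of all genes tested. Position 640 includes the copy Psi18S-640f, at 111 to 242 CPM in the mutants against 1.16 and 4.29 CPM in WT. Of the 6 tested copies of 640, 4 had a positive log2 fold in each genotype, and the position was not tested without 640f. The log2 fold for 640 was 0.94 (SE 0.30, adjusted p = 0.14) in delta142/Df, 0.64 (adjusted p = 0.34) in delta23/delta142 and 0.67 (adjusted p = 0.26) in GOF. That for 841 was 1.03 (SE 0.38, adjusted p = 0.20) in delta142/Df, 1.03 (adjusted p = 0.23) in delta23/delta142 and 0.62 (adjusted p = 0.41) in GOF. The 95% interval in delta142/Df was 0.28 to 1.61 for 640 and 0.17 to 1.89 for 841, so a log2 fold of 1 lay within both. Without delta142/Df replicate 2, the remaining libraries gave calls for 640 and 841 in delta142/Df against WT, where the lone library is assumed to vary like the other groups, and for 640, 841 and 1086 in the LOF average. When either delta142/Df library was left out, 841 was called higher in delta23/delta142 and 640 in GOF, groups that kept both of their libraries.

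Psi18S-1086 was at 1888 and 1059 CPM in delta142/Df, 1455 and 1372 CPM in delta23/delta142, 1043 and 1691 CPM in GOF and 908 and 624 CPM in WT. Its groups did not overlap either, and its log2 fold was 0.94 (SE 0.32, adjusted p = 0.16), 0.88 (adjusted p = 0.21) and 0.83 (adjusted p = 0.18) in the same order of genotypes. Psi18S-110 comes from a later intron of the same host, Sf3b3. It was at 2032 and 964 CPM in delta142/Df, 1375 and 1504 CPM in delta23/delta142, 1419.7 and 1378 CPM in GOF and 863 and 1359.9 CPM in WT. For 110 the groups overlapped, as delta142/Df replicate 2 stood below WT replicate 2, with log2 folds of 0.43, 0.37 and 0.33 and adjusted p of 0.54 to 0.63. The host mRNA, listed as CG13900, was at 235 and 223 CPM in delta142/Df, 274 and 223 CPM in delta23/delta142, 276 and 205 CPM in GOF and 190 and 184 CPM in WT. Its mutant libraries also stood above WT, with log2 folds of 0.29, 0.41 and 0.36 that were not called (adjusted p = 0.48, 0.33 and 0.34). The dom mRNA, host of the 841 copies, was likewise at 562 to 698 CPM in the mutants against 492 and 489 CPM in WT, with log2 folds of 0.31, 0.33 and 0.41 and no call (adjusted p = 0.40, 0.39 and 0.23).

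Position 525, with the most copies, was at 1926 and 1868 CPM in delta142/Df, 1449 and 1573 CPM in delta23/delta142, 921 and 1880 CPM in GOF and 999 and 1001 CPM in WT. The LOF libraries all stood above WT, and 1 GOF library stood below it. The copy Psi18S-525e was at 290 to 925 CPM in the mutants against 178 and 57.1 CPM in WT. Of the 11 tested copies, 9, 8 and 5 had positive log2 folds in delta142/Df, delta23/delta142 and GOF, and the position was not tested without 525e. The log2 fold of position 525 was 0.92 (SE 0.28, adjusted p = 0.11) in delta142/Df, 0.60 (adjusted p = 0.32) in delta23/delta142 and 0.49 (adjusted p = 0.37) in GOF. In GOF it was -0.10 without GOF replicate 2 and 0.95 without GOF replicate 1, so 1 library decides its direction. When either GOF library was left out, position 525 was called higher in both LOF genotypes and in their average, and without GOF replicate 1 in GOF as well.

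Psi18S-920, in the first intron of the large-subunit protein gene RpL10Ab, was at 3102 and 1932 CPM in delta142/Df, 2475 and 2226 CPM in delta23/delta142, 1966 and 2032 CPM in GOF and 1499 and 1897 CPM in WT. The mutant libraries again all stood above WT, the lowest of them by a narrow margin, and the log2 folds of 0.57, 0.47 and 0.24 were not called (adjusted p = 0.25, 0.37 and 0.64). The mRNA of RpL10Ab itself had 340 to 495 CPM in the mutants against 445 and 599 CPM in WT, so the host level did not stand on the same side.

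At 176, 301, 1377 and 1347, all among the more abundant positions, the mutant libraries overlapped WT. Psi18S-176 was at 13998 and 7314 CPM in delta142/Df, 9238 and 12870 CPM in delta23/delta142, 13116 and 9180 CPM in GOF and 8104 and 12692 CPM in WT. Replicates of 1 group differed here by more than the group means did, and the log2 folds were 0.036, 0.089 and 0.10. Psi18S-301, which also has no host, was at 1526 and 1474 CPM in delta142/Df, 1644 and 1965 CPM in delta23/delta142, 1692 and 2030 CPM in GOF and 1405 and 2176 CPM in WT. Both WT libraries lay outside the range of the mutants, 1 at each end.

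Position 1377, whose 5 copies sit in 1 intron of RpS7, a small-subunit protein gene, was at 2881 and 4260 CPM in delta142/Df, 2427 and 3150 CPM in delta23/delta142, 3039 and 4620 CPM in GOF and 3642 and 3711 CPM in WT. Position 1347, in pAbp, was at 1885 and 1715 CPM in delta142/Df, 1205 and 1620 CPM in delta23/delta142, 1407 and 1313 CPM in GOF and 1664 and 2170 CPM in WT. Their log2 folds against WT in delta142/Df, delta23/delta142 and GOF were -0.042, -0.40 and 0.059 for 1377, and -0.090, -0.44 and -0.50 for 1347, with adjusted p of 0.24 or more. Both overlapped WT in delta142/Df. The delta23/delta142 libraries stood below both WT libraries at 1377 and at 1347, and the GOF libraries did so at 1347 only. At 1389, the other guide position in dom, the level was 946 and 523 CPM in delta142/Df, 588 and 724 CPM in delta23/delta142, 423 and 478 CPM in GOF and 607 and 566 CPM in WT. Only the GOF libraries stood wholly below WT there, with a log2 fold of -0.38 (adjusted p = 0.44), and the LOF average was 0.62 above GOF on the log2 scale (adjusted p = 0.85).

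The other 5 positions were not called either. Psi18S-1295, in RpS20, was at 1916 and 1518 CPM in delta142/Df, 1447 and 1948 CPM in delta23/delta142, 818 and 2073 CPM in GOF and 1140 and 1354 CPM in WT. Psi18S-996, in Tudor-SN, a nuclease of the RNA-induced silencing complex, was at 1189 and 1195 CPM in delta142/Df, 1070 and 2014 CPM in delta23/delta142, 1066 and 1709 CPM in GOF and 793 and 1403 CPM in WT. In both cases a pair of libraries of 1 genotype differed by more than the group means. Psi18S-1820, from the intron of Nop60B, was at 725 and 382 CPM in delta142/Df, 378 and 498 CPM in delta23/delta142, 475 and 400 CPM in GOF and 359 and 414 CPM in WT. Psi18S-1397, in CG10576, was at 258 and 218 CPM in delta142/Df, 173 and 222 CPM in delta23/delta142, 165 and 221 CPM in GOF and 200 and 179 CPM in WT. Position 1854, in the small-subunit protein gene RpS5a, was at 175 and 242 CPM in delta142/Df, 218 and 258 CPM in delta23/delta142, 170 and 190 CPM in GOF and 173 and 132 CPM in WT. For these 5 positions the log2 folds of the 3 genotypes against WT were between 0.024 and 0.64 and the adjusted p at least 0.17.

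**Figure D2:**
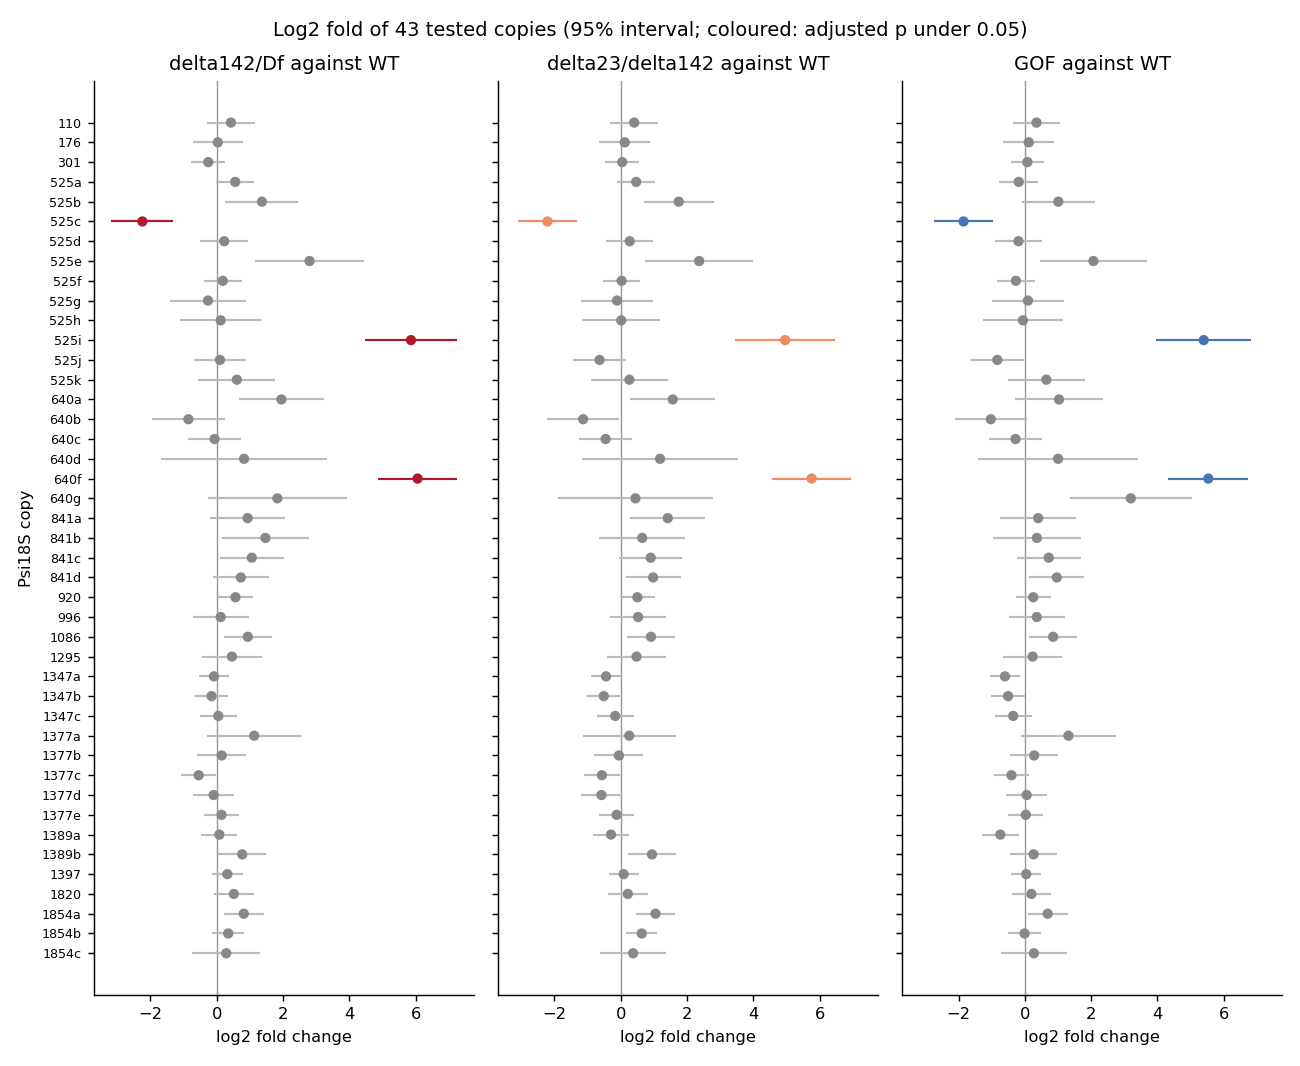
Log2 fold of each tested copy against WT in the 3 genotypes, with 95% intervals from edgeR; coloured points are called at an adjusted p of 0.05. In each panel 640f and 525i stand far to the right, 525c stands to the left, and no other copy is called.

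Single copies behaved differently from their sums. In each of the 3 genotypes, and in the LOF average, 3 of the 43 tested copies were called, and they were the same 3: 640f and 525i were higher than in WT, and 525c was lower. Over all genes the share called was 1.68% in delta142/Df (0.562% higher and 1.11% lower), 0.832% in delta23/delta142 (0.249% higher and 0.584% lower), 3.11% in GOF (0.919% higher and 2.19% lower) and 2.19% in the LOF average (0.616% higher and 1.58% lower). All 3 copies lie in introns of Arpc2. The median log2 fold of the 43 copies was 0.35 in delta142/Df, 0.27 in delta23/delta142 and 0.24 in GOF, against 0.0061, 0.0062 and 0.012 over all genes. Positive folds were seen for 34, 30 and 29 of the 43, against 4679, 4667 and 4717 of the 9252 genes tested. Many of the copies share a host and all share the WT libraries, so they are not independent counts.

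Psi18S-640f had 201 and 107 counts in delta142/Df, 166 and 193 counts in delta23/delta142, 137 and 150 counts in GOF, and 1 and 3 counts in WT. Its level was 242 and 118 CPM in delta142/Df, 141.9 and 149.5 CPM in delta23/delta142, 111 and 139 CPM in GOF and 1.16 and 4.29 CPM in WT. The 6 mutant libraries were all far above WT, where the copy was near the lowest level that can be counted. The log2 fold was 6.06 (SE 0.54, adjusted p = 0.0014) in delta142/Df, 5.76 (SE 0.54, adjusted p = 0.0016) in delta23/delta142 and 5.54 (SE 0.55, adjusted p = 0.0039) in GOF. As ratios of pooled CPM these were 69.3 with a 95% exact counting interval of 26.8 to 256, 57.1 (22.1 to 211) and 48.5 (18.7 to 179). It stayed called in all 3 genotypes and in the LOF average without each of the 8 libraries in turn.

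Psi18S-525i had 33 and 44 counts in delta142/Df, 26 and 32 counts in delta23/delta142, 39 and 35 counts in GOF, and 1 and 0 counts in WT. The mutant libraries were at 22.2 to 48.4 CPM, without overlap with WT. Ratios of pooled CPM were 69.3 (95% exact counting interval 12.1 to 2770) in delta142/Df, 36.9 (6.36 to 1480) in delta23/delta142 and 50 (8.7 to 2000) in GOF, with adjusted p of 0.0019, 0.021 and 0.0048. Against delta23/delta142 the delta142/Df libraries were higher by 0.90 on the log2 scale, which was not called (adjusted p = 0.43). Without any 1 of the delta23/delta142 or WT libraries the copy was no longer called in delta23/delta142, at an adjusted p of up to 0.15, and without WT replicate 2 it was lost in GOF and in the LOF average (adjusted p = 0.053 and 0.054).

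Psi18S-525c went the other way. It was at 39.8 and 16.5 CPM in delta142/Df, 28.2 and 28.7 CPM in delta23/delta142, 50.3 and 22.2 CPM in GOF and 118 and 147 CPM in WT. Every mutant library was below both WT libraries by more than the spread within any group. The log2 fold was -2.24 (SE 0.42, adjusted p = 0.036) in delta142/Df, -2.21 (SE 0.41, adjusted p = 0.042) in delta23/delta142 and -1.85 (SE 0.40, adjusted p = 0.036) in GOF. The call did not hold without any 1 of the WT or delta23/delta142 libraries, at an adjusted p of up to 0.30, nor, in delta142/Df, without replicate 2 of that genotype, though the log2 fold stayed between -2.98 and -1.39 in the 3 genotypes over all 8 such fits.

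**Figure D3:**
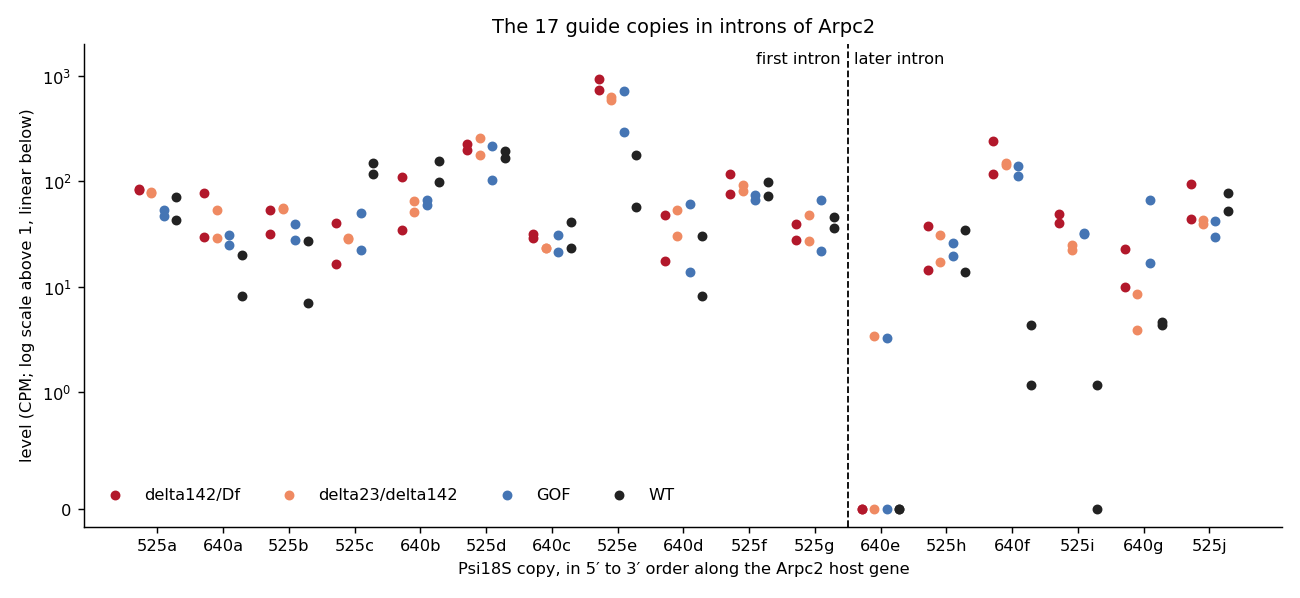
Level in CPM of the 17 copies in Arpc2, in their order along the gene from 5′ to 3′, by library (log scale above 1 CPM, linear below). The dashed line parts the 11 copies of the first intron from the 6 of the later one. At 640f and 525i the mutant points lie above both WT points with a wide gap, at 525c below them, while most neighbours overlap.

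The 3 called copies were not all next to each other. In the first intron the order was 525a, 640a, 525b, 525c, 640b, 525d, 640c, 525e, 640d, 525f and 525g, and in the later intron 640e, 525h, 640f, 525i, 640g and 525j. The higher copies 640f and 525i are neighbours in the later intron, and 525c lies in the first. Of the 14 other copies, 13 were tested, and chosen after their values were seen, 525e, 525b, 640a, 640b and 640g are described here. Psi18S-525e had the highest CPM of the cluster in each mutant library, at 734 and 925 CPM in delta142/Df, 634 and 593 CPM in delta23/delta142, 290 and 711 CPM in GOF and 178 and 57.1 CPM in WT. Its groups did not overlap and its log2 folds were 2.80, 2.36 and 2.07, but its WT libraries differed widely and edgeR did not call it (adjusted p = 0.12, 0.19 and 0.17). DESeq2 called it in all 3 genotypes.

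Psi18S-640a was at 24.9 to 77.2 CPM in the mutants against 8.1 and 20 CPM in WT, and 525b was at 27.6 to 55.6 CPM against 6.94 and 27.1 CPM. Both stood above WT in all 6 mutant libraries, some of them by a narrow margin. Psi18S-640b was at 108 and 34.1 CPM in delta142/Df, 51.3 to 65.1 CPM in delta23/delta142, 59.2 and 66.6 CPM in GOF and 156 and 98.6 CPM in WT, so 1 mutant library overlapped, with log2 folds of -0.85, -1.13 and -1.03 and adjusted p of 0.28 to 0.41. Psi18S-640g was at 66.5 CPM in GOF replicate 1 and at 3.87 to 22.9 CPM in the other 5 mutant libraries, against 4.63 and 4.29 CPM in WT.

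Some copies also differed between the mutants and WT in their share of the counts assigned to their position. Psi18S-640f gave 35.2% to 48.9% of the counts for position 640 in the mutant libraries, against 0.575% and 2.16% in WT. Psi18S-640b gave 14.2% to 20.5% in the mutants against 77.6% and 49.6% in WT. At position 525 the share of 525e was 31.5% to 49.8% in the mutants against 17.9% and 5.78% in WT, and that of 525c was 0.889% to 5.48% against 11.9% and 14.9%. For these 4 copies the ranges did not overlap. Psi18S-525k, which lies not in Arpc2 but in an intron of Msp300, a nesprin that links nuclei to the cytoskeleton, gave 19.8% to 33.9% in the mutants against 28.4% and 26.6% in WT. The sequences of the copies were not compared here, and the handling of reads shared by several copies was not given in the sources used here. A shift between copies may therefore not be a shift in the amount of either RNA. The 3 called copies stood on the same side of WT in the LOF and the GOF libraries, the WT stock is not settled, and the genotypes cannot be told apart from a difference in sequence at these copies between stocks.

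**Figure D4:**
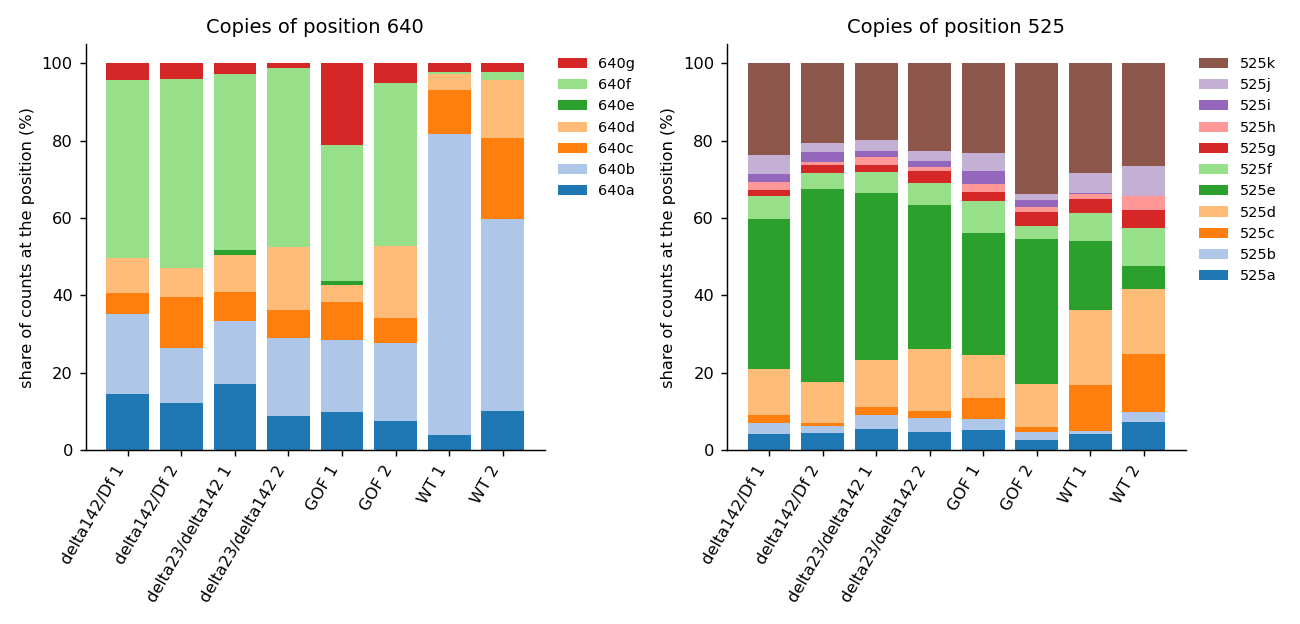
Share of the counts at position 640 (left) and position 525 (right) given by each copy, per library in percent. Psi18S-640f takes 35.2% to 48.9% of position 640 in the mutants and under 3% in WT, where 640b takes 77.6% and 49.6%.

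Summed over all 17 copies, a grouping by host added after the annotation was seen, the Arpc2 cluster was at 2004 and 1727 CPM in delta142/Df, 1469 and 1535 CPM in delta23/delta142, 1024 and 1569 CPM in GOF and 917 and 936 CPM in WT. All mutant libraries stood above WT. The sum was called higher in delta142/Df (log2 fold 1.01, SE 0.23, adjusted p = 0.043) and in the LOF average (0.85, SE 0.20, adjusted p = 0.045), and not in delta23/delta142 (0.70, adjusted p = 0.16) or GOF (0.48, adjusted p = 0.26). Among all genes, with copies summed by host, 0.585%, 0.651%, 0.249% and 0.976% were called higher in those comparisons. It was 1 of 12 host sums tested, and no other was called in any comparison. The host sums were tested with the main settings only, without the alternatives used for copies and positions. The 11 copies of the first intron summed to 747 to 1542 CPM in the mutants against 841 and 804 CPM in WT, with overlap. The 6 copies of the later intron, 640f among them, summed to 234 to 436 CPM in the mutants against 72.9 and 120 CPM in WT. Without 525c, 525i and 640f the remaining 14 copies summed to 828 to 1657 CPM in the mutants against 794 and 773 CPM in WT, and without 525e as well they summed to 538 to 922 CPM against 616 and 716 CPM, with overlap.

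The Arpc2 mRNA, listed as Arc-p34, was at 85.6 and 113 CPM in delta142/Df, 82.1 and 76.7 CPM in delta23/delta142, 109 and 92.5 CPM in GOF and 85.6 and 52.9 CPM in WT. Its groups overlapped and it was not called. None of the 15 host symbols in the files was called in any of the 6 comparisons, with a smallest adjusted p of 0.14, and none of the median log2 folds of the host genes was beyond 0.15 in size.

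The copy with the highest mean CPM in each of the other clusters was measured in the same way. Psi18S-841c was at 493 and 199 CPM in delta142/Df, 354 and 267 CPM in delta23/delta142, 236 and 311 CPM in GOF and 149 and 183 CPM in WT. All 4 copies of 841 had positive folds in each genotype, between 0.36 and 1.47 on the log2 scale, and none was called. Psi18S-1377c was at 1295 and 1602 CPM in delta142/Df, 1135 and 1706 CPM in delta23/delta142, 1431 and 1760 CPM in GOF and 1848 and 2373 CPM in WT. It stood below WT in all 6 mutant libraries, with log2 folds of -0.54, -0.57 and -0.40 and adjusted p of 0.28 to 0.40. The share of 1377c in its position was 37.6% to 53.5% in the mutants against 50.9% and 64.8% in WT, while that of 1377a, named after its values were seen, was 17.9% to 33.5% against 13.9% and 10.45%.

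Psi18S-1347b was at 1162 and 953 CPM in delta142/Df, 636 and 1013 CPM in delta23/delta142, 809 and 849 CPM in GOF and 1100 and 1254 CPM in WT. Psi18S-1389a was at 553 and 313 CPM in delta142/Df, 296 and 372 CPM in delta23/delta142, 268 and 223 CPM in GOF and 434 and 386 CPM in WT. In 1347b and 1389a both the delta23/delta142 libraries (log2 folds -0.51 and -0.30, adjusted p = 0.31 and 0.60) and the GOF libraries (-0.51 and -0.74, adjusted p = 0.25 and 0.14) stood below both WT libraries, and delta142/Df overlapped WT. Psi18S-1854b was at 83.2 and 110 CPM in delta142/Df, 108 and 128 CPM in delta23/delta142, 77.0 and 74.0 CPM in GOF and 77.5 and 74.3 CPM in WT. There the LOF libraries stood above WT and the GOF libraries overlapped it, with log2 folds of 0.35, 0.63 and -0.0081 and adjusted p of 0.19 to 0.99.

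Across copies, 11 of the 43 (25.6%) had all 6 mutant libraries above both WT libraries, against 11.7% of all genes tested. They were 1086, 920, 1854a, 525b, 525e, 525i, 640a, 640f, 841a, 841c and 841d. Of the 11, 8 came from Arpc2 or dom, which hold 22 of the 43 tested copies. Those hosts were not named in advance, copies of a host are not independent, and this split was not tested. Another 2 (4.65%), 525c and 1377c, had all 6 below, against 12.5% of all genes.

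The mutant groups were not told apart by these snoRNAs. In delta142/Df against delta23/delta142, edgeR called 0 of 43 copies and 0 of 16 positions, with 1 copy and 0 positions at an unadjusted p below 0.05. In the LOF average against GOF it also called 0 copies and 0 positions, with 4 copies and 1 position at an unadjusted p below 0.05. Over all genes the unadjusted shares were 9.39% (9.45% with copies summed by position) between the LOF genotypes and 5.48% (5.65%) in the LOF average against GOF. No gene at all was called in either comparison (0%), and DESeq2 and limma-voom called no copy. The smallest p among copies was that of 640g, with a log2 fold of -2.06 in the LOF average against GOF (adjusted p = 0.79). With GOF replicate 1 as the lone GOF library, assumed to vary like the other groups, 640g was called lower in LOF, and 525d and 1295 higher; with GOF replicate 2 as the lone one, no copy was called.

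**Figure D5:**
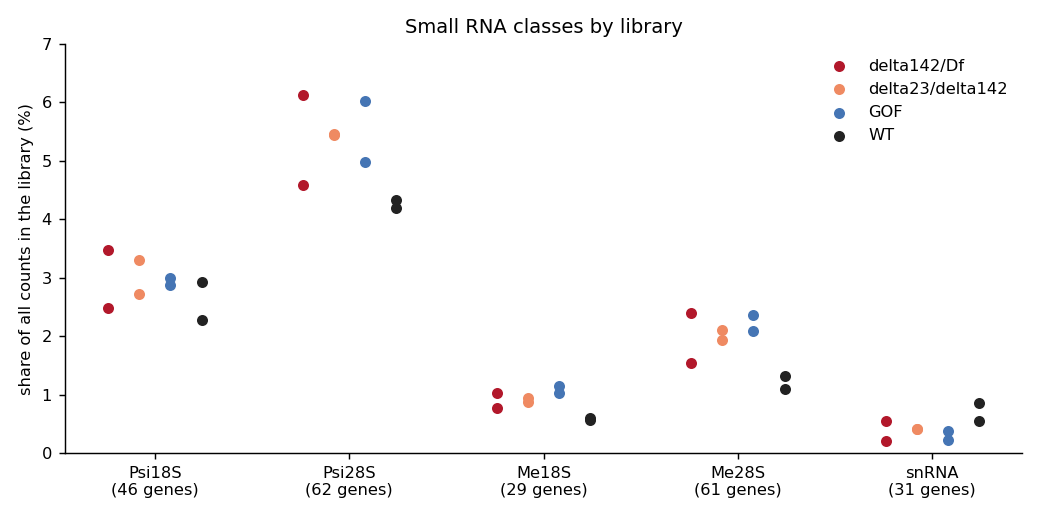
Share of all counts in each library, in percent, given by 5 classes of small RNA genes, with the number of genes per class in parentheses. The mutant points lie above both WT points for Psi28S, Me18S and Me28S snoRNAs and overlap WT for Psi18S.

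Among the 4 classes of rRNA guides, Psi18S was the one whose share of the library overlapped WT. It was 2.48% to 3.47% in the mutant libraries against 2.29% and 2.93% in WT. Psi18S-176 alone gave 28.7% to 45.6% of the Psi18S counts. Without it the other 45 copies summed to 15764 to 22176 CPM in the mutants against 14830 and 17465 CPM in WT, still with overlap. The share of the Psi28S guides, box H/ACA snoRNAs for 28S rRNA, was 4.59% to 6.12% against 4.19% and 4.34%, and that of the Me28S guides, box C/D snoRNAs for 2′-O-methylation, was 1.55% to 2.40% against 1.10% and 1.33%. The Me18S guides took 0.770% to 1.15% in the mutants against 0.577% and 0.610% in WT. Of all genes tested, 11.7% had all 6 mutant libraries above both WT libraries. The differences between classes were not tested. The proteins of the H/ACA particle and its assembly were measured at low counts: 5 of 6 (NHP2, Nop60B, and the fly counterparts of GAR1, NAF1 and SHQ1) passed the filter, and 0 were called in any comparison. Nop60B, the enzyme, was at 69.9 and 56.1 CPM in delta142/Df, 52.1 and 79.0 CPM in delta23/delta142, 45.4 and 64.7 CPM in GOF and 57.9 and 55.7 CPM in WT, and the groups overlapped. Of the core proteins of the C/D particle (Fib, nop5, Nop56 and hoip), 3 of 4 were tested and 0 were called.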

How the data were processed

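The authors deposited 1 table of read counts per gene for each of 8 libraries. Per the labels' protocols, total RNA from 150 heads was depleted of ribosomal RNA with a RiboMinus kit and sequenced as SOLiD whole-transcriptome libraries, and per the submitters' processing notes the counts come from HTSeq on the dm3 build. The software versions, the aligner, the annotation, the strand setting and the handling of reads with several matches were not given in the sources used here. No selection for small RNA is stated in the labels, so levels of snoRNAs relative to mRNAs depend on the library method. The deposited counts were taken as raw.

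Groups come from the titles. Tests ran in R 4.3.3. The main tool was edgeR 4.0.16, with statmod 1.5.0; the alternatives were DESeq2 1.42.0 and limma 3.58.1. Genes passed filterByExpr (minimum count 10, minimum total 15), and 1 model of 4 group means with TMM scaling and robust quasi-likelihood tests left 4 residual degrees of freedom. Genes were called at 0.05 after Benjamini-Hochberg adjustment over the 9252 tested. The biological coefficient of variation common to all genes was 20.7%. Copies were also summed by position (9225 genes tested), by host (9223) and in total (9210). Each table was scaled anew, so CPM of sums differ slightly from summed CPM of copies. CPM per kb use lengths from BDGP6, which also gave hosts and gene order; no coordinates are given, since the builds differ. Intervals are 95%. Counting intervals (Clopper-Pearson, from the split of pooled counts) and the limit of 3 counts for a 0 cover counting error only.

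Values are given in every library for each position with at least 3 counts a library on average, for each copy called in any of the 6 comparisons, and for the highest copy of every other multi-copy position. The members and lists were chosen with earlier results of these data known. The test was checked on simulated data. Alternatives were other scaling, filters and tests, a replicate block and leaving out each library.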

Additional observations from a re-analysis of the deposited data

How the results depend on the processing

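Psi18S-640f was called by edgeR without each of the 8 libraries in all 4 comparisons with WT, and limma-voom missed it in all but GOF, at an adjusted p of up to 0.092. The number of copies called was 1 in delta142/Df and 1 in delta23/delta142 with a minimum count of 50, 0 in both with limma-voom, and 5 in delta23/delta142 and 5 in GOF with DESeq2, which added 525e in both, 841a in the first and 640g in the second. Summed by host, 1 group of copies was called in delta142/Df and 1 in the LOF average. The host sums were run with the main settings only, so how these 2 calls depend on the processing was not tested. Leaving out 1 library, with the lone one left assumed to vary like the other groups, gave 2 to 5 copies in delta142/Df, 1 to 5 in delta23/delta142, 1 to 4 in GOF, 1 to 9 in the LOF average and 0 to 3 in the LOF average against GOF. The positions called were then 0 to 2, 0 to 1, 0 to 1, 0 to 3 and 0 to 2. The highest numbers came without delta142/Df replicate 2 (5 copies in each LOF genotype, 9 copies and 3 positions in the LOF average) and, against GOF, without GOF replicate 2. One copy, 640f, was left in delta23/delta142 without any 1 of the WT or delta23/delta142 libraries, and without WT replicate 2 in GOF and the LOF average; the cause was not tested. The total had log2 folds of -0.033 to 0.46 in delta142/Df against WT, -0.24 to 0.26 in delta142/Df against delta23/delta142 and -0.10 to 0.14 in the LOF average against GOF, so its sign turned. Position 525 in GOF turned to -0.10 without GOF replicate 2 and was 0.95 without GOF replicate 1. The share of all genes called in these other fits, and in the fit with a replicate block below, is not given here. Their numbers of copies and positions therefore have no background beside them, and whether they follow a general change in calls was not tested.

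The labels do not say whether a replicate number marks a shared batch. Replicate differences correlated at 0.077 to 0.172 between the mutant groups and at -0.041 to -0.0245 between these and WT. These values do not settle whether libraries with the same number are paired. With the number as a replicate block, 3, 4, 4 and 4 copies were called in delta142/Df, delta23/delta142, GOF and the LOF average, against 3 in each without it, the added ones being 841a, 640g and 841a, and 0 positions. Depth limits the copies with few counts, 525i and 640e above all. Scaling without small RNA genes changed no call.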
